A study of Mus musculus with 6 samples.

Results

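The genes of iron and haem handling (Slc11a1, Slc11a2, Slc40a1, Tfrc, Fth1, Ftl1, Hmox1, Hmox2, Ireb2 and Steap3) were followed in mouse bone marrow-derived macrophages after interferon-gamma (IFN-γ), the cytokine that activates macrophages. They were chosen by gene name, and all 10 were found among the 36706 entries of the tables. RNA sequencing counts came from 6 libraries of wild-type cells grown from bone marrow with M-CSF: 3 were left untreated and 3 received IFN-γ, all labelled 3 h. The sources used here give no strain, age, sex or IFN-γ dose. They do not state whether replicates are separate animals or cultures, so each p-value reflects the spread among these libraries alone, and that spread may be technical.

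Macrophages take up iron as transferrin through the transferrin receptor (Tfrc) and as haem from engulfed red cells. Ferric iron is reduced by STEAP3 and moved out of endosomes by SLC11A2 (DMT1) or out of phagosomes by SLC11A1 (NRAMP1), stored in ferritin (Fth1 and Ftl1), or exported by ferroportin (Slc40a1). Haem is opened by the haem oxygenases (Hmox1 and Hmox2), which releases iron. The iron-regulatory proteins IRP1 (from Aco1) and IRP2 (from Ireb2) bind iron-responsive elements when iron is scarce. Bound in the 5' UTR they block translation, and bound in the 3' UTR they protect the mRNA from decay.

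These elements are shown because their place in the mRNA separates control of translation by the iron-regulatory proteins from control of mRNA decay. Counts of mRNA can reflect the 3' kind but not a block of translation. The motif searched in the sense strand of GENCODE M21 UTRs (GRCm38) was a C, then 5 bases, then the 6-base loop CAGTGN, then 5 bases that pair with the 5 before the loop (G-T pairs allowed). It was present in the 5' UTR of 3 of the 10 genes and in the 3' UTR of 1. Over all genes, 31 of 21181 5' UTRs (0.146%) and 144 of 21173 3' UTRs (0.68%) held it. A form with 1 more, unpaired base inside the last strand, tried after the strict search, was present in 1 further gene of the 10, Slc11a2, and in 1.32% of 3' UTRs. Sites are printed in the mRNA sense with T for U, and capitals mark the 6-base loop:
Fth1, 5' UTR, chr19:9982731-9982760, plus strand: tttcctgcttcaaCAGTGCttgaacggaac
Ftl1, 5' UTR, chr7:45459779-45459808, minus strand: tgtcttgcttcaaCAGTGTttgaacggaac
Slc40a1, 5' UTR, chr1:45925465-45925494, minus strand: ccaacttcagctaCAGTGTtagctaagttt
Slc11a2, 3' UTR, chr15:100395153-100395182, minus strand: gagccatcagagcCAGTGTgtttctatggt
Tfrc, 3' UTR, chr16:32631218-32631247, plus strand: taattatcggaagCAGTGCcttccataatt
Tfrc, 3' UTR, chr16:32631597-32631626, plus strand: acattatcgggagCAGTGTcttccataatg
Tfrc, 3' UTR, chr16:32631662-32631691, plus strand: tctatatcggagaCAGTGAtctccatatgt
Tfrc, 3' UTR, chr16:32631709-32631738, plus strand: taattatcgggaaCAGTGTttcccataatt
Of the transcripts annotated with the UTR in question, the site was in 4 of 5 for Fth1, 2 of 3 for Ftl1, 1 of 4 for Slc40a1 and 1 of 4 for Slc11a2, and each Tfrc site was in 1 of 2. Gene counts do not separate these transcripts. Hmox1, Hmox2, Slc11a1, Steap3 and Ireb2 had no site of either form. A match in letters does not show how iron acts on a gene.

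Total counts ran from 28133342 to 34233607 per library, and CPM below are the usual counts scaled to library size, here after adjustment with TMM factors. As a check of the treatment labels, Irf1 and Acod1, which IFN-γ induces, rose by 4.83 ± 0.063 and 5.92 ± 0.074 on the log2 scale (± SE), and all 8 genes of a response check list rose, with Cxcl9 (8.23 ± 0.13) and Gbp2 (7.04 ± 0.083) at the top. The 8 macrophage markers summed to 19600 to 21200 CPM untreated and 20800 to 22100 CPM with IFN-γ, and 3 of them were called higher. The 8 erythroid markers, of cells rich in Tfrc and haem synthesis, summed to 0.267 to 0.44 CPM, with Hba-a2 at 0 and 6 of 8 at 3 counts or fewer in every library. Lymphocyte, mast cell and stromal markers summed to at most 2.03 CPM, with Cd3e and Fcer1a at 0. Neutrophil markers moved with the treatment: 4 of 7 tested were higher, none lower, and the sum over 8 was 79.4 to 105 CPM untreated and 137 to 150 CPM with IFN-γ, while Ly6g had at most 3 counts. Dendritic cell markers, 2 of 6 higher, summed to 2.79 to 3.08 and 6.71 to 7.3 CPM. In bulk RNA, fewer cells of a type and less RNA per cell cannot be told apart.

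The changes split the genes into those that moved and those that did not pass the test. With IFN-γ, the metal transporter genes Slc11a2 and Slc11a1 rose, and the haem oxygenase gene Hmox1, the ferrireductase gene Steap3 and the exporter gene Slc40a1 fell. That is 2 of 10 higher and 3 of 10 lower (edgeR's quasi-likelihood test, adjusted p under 0.05 over 12968 genes), where 19.6% of all genes tested were called higher, 16.8% lower and 36.4% either way. The same 5 genes had groups that did not overlap in CPM, against 50.1% of all genes. The median log2 fold change was -0.048 over the 10 genes and -0.014 over all genes. Past 1.5-fold were 3 of the 10, and 19.1% of all genes tested.

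Per transcript length, the 10 genes spanned a wide range of levels. Ftl1 ranked 1 and Fth1 ranked 3 by mean TPM among all entries, at 41833 ± 1252 and 25825 ± 1717 TPM untreated (mean ± SD, n = 3). Hmox1 followed at 1838 ± 6.98 TPM and Slc11a1 at 182 ± 15.4 TPM. Tfrc (111 ± 13.0 TPM), Slc40a1 (104 ± 8.86 TPM) and Hmox2 (102 ± 6.67 TPM) lay within each other's spread. Below them came Steap3 at 46.3 ± 1.81 TPM, Slc11a2 at 23.5 ± 1.94 TPM and Ireb2 at 19.4 ± 3.10 TPM, and the libraries of Slc11a2 and Ireb2 overlapped. With IFN-γ, Slc11a2 lay above Steap3, at 38.2 ± 3.75 against 24.3 ± 0.538 TPM, and Slc40a1, at 79.8 ± 3.81 TPM, lay below Hmox2, at 94.4 ± 1.16 TPM. Tfrc (97.7 ± 2.67 TPM) and Hmox2 still overlapped.

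**Figure D1:**
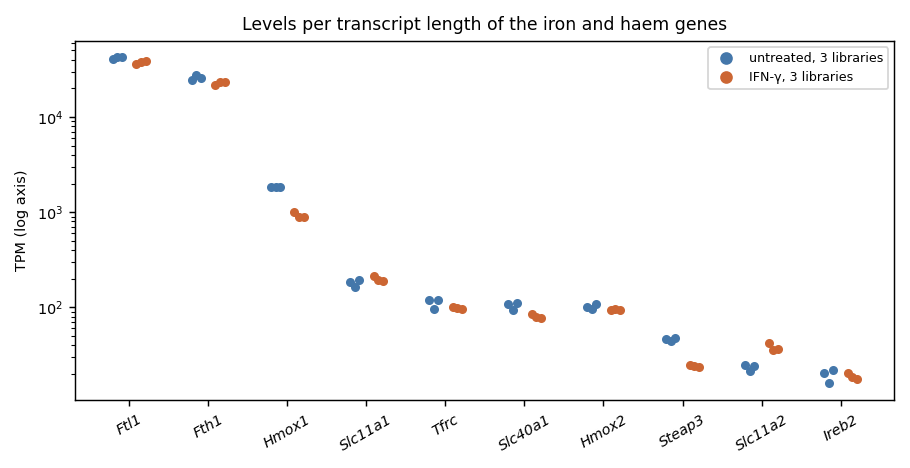
TPM (log axis) of the 10 genes in each of 3 untreated and 3 IFN-γ libraries (points), ordered by the untreated mean. Ferritin mRNAs stand far above the rest, and Steap3 and Slc11a2 exchange places with IFN-γ.

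Among the genes of iron uptake and of transport out of endosomes and phagosomes, Slc11a2 rose and Steap3 fell by the same factor, Slc11a1 rose and Tfrc did not pass the test. Slc11a2 encodes the divalent metal transporter that carries ferrous iron across endosomal and plasma membranes, and the tables place it on chromosome 15 from 100285779 to 100322090, minus strand (the build of these coordinates is unnamed). Without IFN-γ it stood at 69.2, 67.2 and 67.2 CPM, and with it at 128, 115 and 116 CPM. The groups lay far apart, and IFN-γ replicate 1 was the highest library. This is a 1.76-fold rise, or 0.82 ± 0.062 (SE) on the log2 scale (edgeR adjusted p = 2.12e-05). Of its exon bases, 1.68% overlapped a predicted gene on the other strand.

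Slc11a1 encodes the phagosomal metal transporter that withholds iron and manganese from engulfed microbes, and lies on chromosome 1 from 74414318 to 74429974, plus strand. It stood at 355, 357 and 369 CPM untreated and at 442, 419 and 418 CPM with IFN-γ. All IFN-γ libraries were above all untreated libraries. The rise was 1.18-fold, 0.24 ± 0.055 on the log2 scale (edgeR adjusted p = 0.00946). This call was lost with upper quartile scaling (0.096, adjusted p = 0.192) and with total counts (0.073, adjusted p = 0.331).

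Steap3, the endosomal reductase that turns ferric into ferrous iron, lies on chromosome 1 from 120154137 to 120198810, minus strand. Its CPM were 68.6, 73.7 and 69.6 untreated and 39.4, 41.1 and 40.2 with IFN-γ. The IFN-γ libraries sat close together and below every untreated library. On the log2 scale the change was -0.81 ± 0.057, a 1.76-fold fall (edgeR adjusted p = 1.31e-05).

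Tfrc, the transferrin receptor gene on chromosome 16 from 32427714 to 32451612, plus strand, did not pass the test. It stood at 269, 248 and 267 CPM untreated and at 249, 254 and 251 CPM with IFN-γ. Untreated replicate 2 lay below the IFN-γ libraries and the other untreated libraries above them. Its log2 fold change was -0.058, with a 95% interval from -0.19 to 0.07 (edgeR adjusted p = 0.467). With upper quartile scaling it was -0.205 (adjusted p = 0.0163) and with total counts -0.229 (adjusted p = 0.0185), both called lower. Cell cycle genes were listed because dividing cells are known to carry more transferrin receptor. Of 16 tested, 10 fell and none rose, where 16.8% of all genes tested were called lower. Those that fell were Cdc6 (-0.98 ± 0.073), Mcm2 (-0.58 ± 0.073), Mcm3 (-0.50 ± 0.073), Mcm4, Mcm5, Mcm6, Mcm7, Cdk1, Ccne1 and Rrm2. Mki67, Top2a, Ccnb1, Ccnb2, Ccne2 and Pcna were not called. Whether the cell cycle genes bear on Tfrc was not tested.

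**Figure D2:**
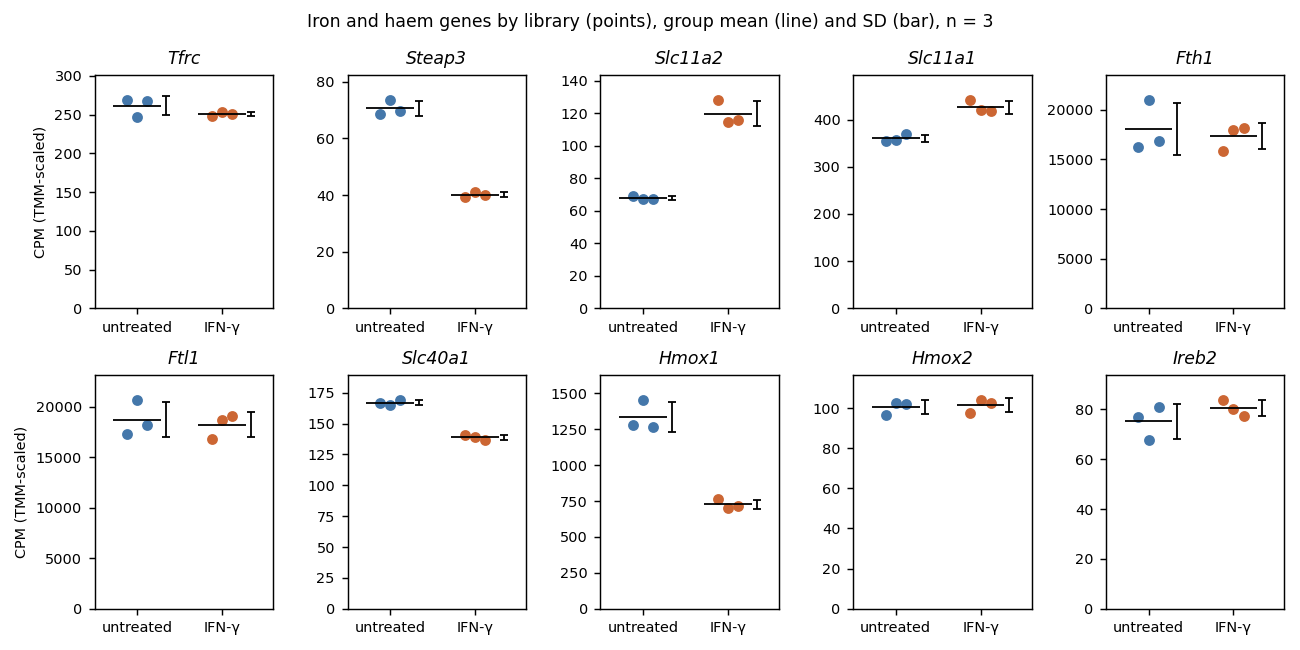
CPM of each gene in 3 untreated and 3 IFN-γ libraries (points, axes from 0), with the group mean (line) and SD (bar). Groups are apart for Slc11a2, Slc11a1, Steap3, Slc40a1 and Hmox1 and overlap for the other genes, with untreated replicate 2 highest for Fth1 and Ftl1.

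The ferritin genes, whose heavy chain oxidises iron and whose light chain helps to mineralise it, took up 3.59%, 4.29% and 3.79% of all counts untreated, and 3.09%, 3.46% and 3.49% with IFN-γ. As raw shares the groups did not overlap, but after TMM scaling they did for both genes. Fth1, on chromosome 19 from 9957964 to 9962475, plus strand, stood at 16247, 21011 and 16867 CPM untreated and at 15807, 17994 and 18149 CPM with IFN-γ. Its log2 fold change was -0.059, with a 95% interval from -0.31 to 0.20 (edgeR adjusted p = 0.722).

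Ftl1, on chromosome 7 from 45107368 to 45109310, minus strand, stood at 17300.3, 20660.3 and 18176 CPM untreated and at 16825, 18713 and 19101 CPM with IFN-γ. The log2 fold change was -0.039, with a 95% interval from -0.25 to 0.17 (edgeR adjusted p = 0.773), and -0.208 with total counts (adjusted p = 0.0466). Untreated replicate 2 was the highest library for both ferritin genes. In that library log2 CPM fell by 0.0925 per doubling of exon length relative to the mean of the libraries. Slopes in the others ran from -0.0246 to 0.0669. The ferritin genes are short, with 1511 and 970 exon bases. Whether exon length raised their values was not tested for that library. Without it the log2 fold changes were 0.065 for Fth1 and 0.038 for Ftl1. Of the 50-base stretches in Ftl1 transcripts, 50.9% occurred in 15 other genes, mainly the pseudogene Ftl1-ps1, so its counts are uncertain as those of a single gene; for Fth1 the share was 1.59%. The 1 ferritin pseudogene listed by that name in the tables, Ftl1-ps2, had 3 to 6 counts.

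Slc40a1 encodes ferroportin, the only known exporter of iron from cells, and lies on chromosome 1 from 45947230 to 45965690, minus strand. It stood at 167, 165 and 169 CPM untreated and at 141, 139 and 137 CPM with IFN-γ. The replicates of each group lay within a few CPM, and the groups did not overlap. The log2 fold change was -0.27 ± 0.049, a fall of 1.20-fold (edgeR adjusted p = 0.00357), and all settings tried kept this call, with values from -0.436 to -0.249.

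Of the haem oxygenases, the inducible gene Hmox1 fell and the constitutive gene Hmox2 did not pass the test. Hmox1, on chromosome 8 from 75820246 to 75827221, plus strand, stood at 1283, 1455 and 1267 CPM untreated and at 763, 702 and 714 CPM with IFN-γ. Every IFN-γ library lay well below every untreated library. This 1.84-fold fall was -0.88 ± 0.076 on the log2 scale (edgeR adjusted p = 4.98e-05), and Hmox1 ranked 108 among all entries by mean TPM. Hmox2, on chromosome 16 from 4544225 to 4584606, plus strand, stood at 96.4, 102 and 102 CPM untreated and at 97.5, 104 and 103 CPM with IFN-γ. The groups overlapped, with a log2 fold change of 0.015 and a 95% interval from -0.11 to 0.14 (edgeR adjusted p = 0.866). With total counts it was -0.155 (adjusted p = 0.0492). Exons of Cdip1 on the other strand covered 41.5% of the exon bases of Hmox2, and Cdip1 had a mean of 717 counts against 3153 for Hmox2 and a log2 fold change of -0.32. How strand was used in counting is not stated in those sources, so the Hmox2 counts are uncertain.

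Ireb2, the gene of the iron sensor IRP2, lies on chromosome 9 from 54769942 to 54819818, plus strand. It stood at 77.0, 67.5 and 80.8 CPM untreated and at 83.8, 80.3 and 77.3 CPM with IFN-γ. Groups overlapped, and the log2 fold change was 0.099, with a 95% interval from -0.08 to 0.27 (edgeR adjusted p = 0.358). IRP2 is known to be controlled mainly by degradation of the protein, which mRNA counts do not show. Aco1, the gene of IRP1, was at 56.8 ± 3.25 and 52.2 ± 6.41 CPM (SD, n = 3 each), a log2 fold change of -0.12 ± 0.093 (edgeR adjusted p = 0.363). Upper quartile scaling (-0.267, adjusted p = 0.0408) and total counts (-0.29, adjusted p = 0.0473) called Aco1 lower.

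**Figure D3:**
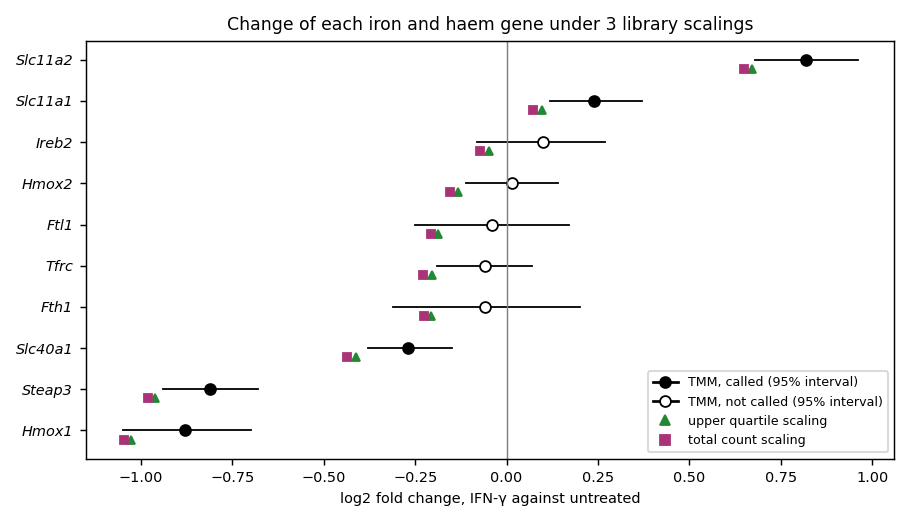
Log2 fold change of each gene with IFN-γ: circles are TMM scaling with the 95% interval (filled if called), triangles upper quartile scaling and squares total counts. Slc11a2, Slc40a1, Steap3 and Hmox1 keep their side of 0 and their call under all 3 scalings, while Slc11a1 moves towards 0 and Hmox2 and Ireb2 change side.

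Ratios within a library do not depend on how libraries are scaled, and 5 were computed from counts per exon base. Hmox1 to Hmox2 was 18.2, 19.4 and 16.9 untreated, against 10.7, 9.20 and 9.49 with IFN-γ. Slc11a1 to Slc11a2 was 7.50, 7.76 and 8.03 against 5.04, 5.34 and 5.27. Both ratios were lower in every IFN-γ library than in any untreated library. Tfrc to Slc40a1, the mRNA of an uptake gene over that of the exporter gene, was 1.09, 1.02 and 1.07 against 1.20, 1.24 and 1.24. Ireb2 to Aco1 was 0.687, 0.662 and 0.714 against 0.731, 0.855 and 0.834. These ratios were higher in every IFN-γ library than in any untreated library. Fth1 to Ftl1 overlapped, at 0.596 to 0.653 untreated and 0.603 to 0.617 with IFN-γ. The counts of Hmox2 and Ftl1 are uncertain for the reasons given above, and so are the ratios that use them. An exact, two-sided permutation test gave p = 0.1 for each of the 4 ratios that did not overlap, which is the smallest p that 3 against 3 allows, and 0.125 after Benjamini-Hochberg adjustment over the 5 ratios; for Fth1 to Ftl1 the exact p was 1.

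**Figure D4:**
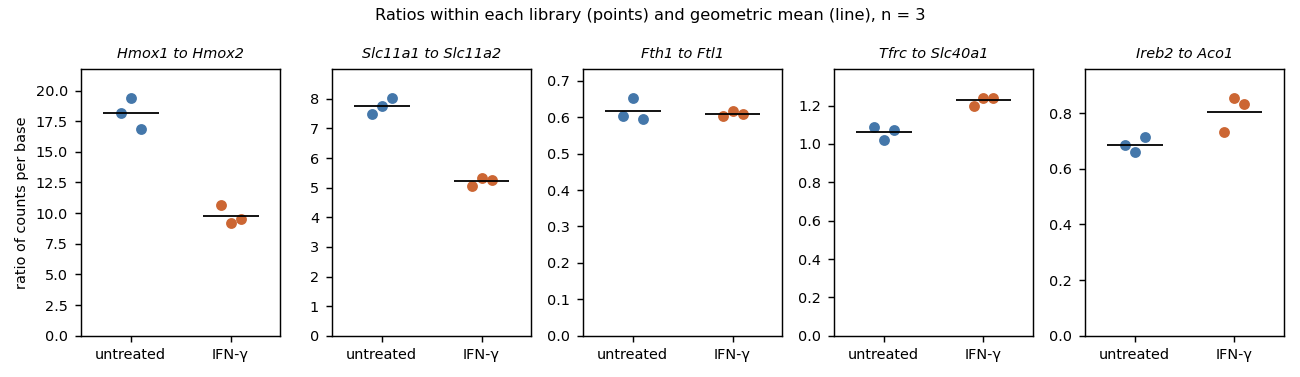
Ratios of counts per exon base between pairs of genes in each library (points) with the geometric mean of 3 libraries (line), axes from 0. Hmox1 to Hmox2 and Slc11a1 to Slc11a2 are lower with IFN-γ, Tfrc to Slc40a1 and Ireb2 to Aco1 higher, and Fth1 to Ftl1 overlaps.

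The rest of the pathway was described from 7 lists without the 10 genes above. Of 84 genes tested among 99 listed, 19 were higher (22.6%) and 17 lower (20.2%), close to the shares over all genes of 19.6% and 16.8%. The 84 genes had a median log2 fold change of -0.040. Each list below is small, and its counts are to be read against the shares over all genes. Scaled by total counts, the lists had 12 genes higher and 37 lower, and without IFN-γ replicate 3 the lower count was 11.

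Of 11 iron transport and entry genes tested, 5 rose and 1 fell, with a median log2 fold change of 0.148. Slc25a37, the mitoferrin that brings iron into mitochondria, rose from 43.0 ± 3.39 to 84.8 ± 4.52 CPM, or 0.98 ± 0.075 as log2 fold change (edgeR adjusted p = 2.36e-05). Cp, the ferroxidase ceruloplasmin that works with ferroportin, rose by 1.09 ± 0.10 from a low level of 2.34 ± 0.187 CPM. Cd163, the receptor for haptoglobin-haemoglobin complexes, fell by 1.30 ± 0.24 on the log2 scale to 0.615 ± 0.0548 CPM. Its mean of 33.3 counts was below the 232 of a gene that overlaps 21.1% of its exon bases on the other strand and had a log2 fold change of -1.19, so this fall is uncertain. The others that rose were Slc25a28, Slc39a8 and Lcn2, the last of which neutrophil precursors also make. Slc25a28 (0.28 ± 0.094, edgeR adjusted p = 0.0488) lay just under the threshold. Slc39a8 rose by 0.255 ± 0.063 (edgeR adjusted p = 0.0142) and Lcn2 by 0.58 ± 0.087 (edgeR adjusted p = 0.00117). The hepcidin genes Hamp and Hamp2 were not tested for want of counts.

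Of 8 iron storage and iron sensing genes, 2 rose and none fell, with a median of 0.115. Fbxl5, the iron-sensing ubiquitin ligase subunit that marks IRP2 for degradation, rose from 47.6 ± 1.34 to 84.0 ± 1.61 CPM, or 0.82 ± 0.053 as log2 fold change (edgeR adjusted p = 8.78e-06). Cisd2, which encodes an iron-sulfur protein of the endoplasmic reticulum, rose by 0.36 ± 0.062. Neither Ncoa4, the receptor that delivers ferritin for breakdown, nor the iron chaperone genes Pcbp1 and Pcbp2 were called.

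Of 10 haem synthesis genes tested, 1 rose and 2 fell, with a median of -0.074. Alas1, the rate-limiting enzyme outside the erythroid lineage, rose by 0.23 ± 0.050, and Alad, the next enzyme of the pathway, fell by 0.44 ± 0.11 on the log2 scale. The Alas1 call was lost with upper quartile scaling (0.079) and total counts (0.057). Without IFN-γ replicate 1 or 3 the Alad call was lost (adjusted p = 0.0563 and 0.0560).

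Of 12 haem transport and breakdown genes, 1 rose and 3 fell, with a median of -0.077. Flvcr1, whose product has been described as a haem exporter, fell from 100.3 ± 1.03 to 64.2 ± 2.36 CPM. Its log2 fold change was -0.64 ± 0.053 (edgeR adjusted p = 3.74e-05), and export of haem was not measured. Hebp1, a haem-binding protein gene, fell by 0.39 ± 0.095 on the log2 scale, and lost its call without IFN-γ replicate 3 (adjusted p = 0.0529). Hp, the gene of haptoglobin, rose by 0.57 ± 0.099 from 3.88 ± 0.364 CPM. Neutrophils store haptoglobin too, and the neutrophil marker sum given above rose alongside; its part in Hp and Lcn2 was not tested. The biliverdin reductase genes Blvra and Blvrb, which act after haem oxygenase, were not called.

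Among 19 iron-sulfur cluster assembly genes, 2 rose and 4 fell, with a median of -0.068. Fdxr, ferredoxin reductase, fell by 0.66 ± 0.16 and Hscb, a co-chaperone, by 0.43 ± 0.093 on the log2 scale. Nfu1, a late carrier of clusters, rose by 0.33 ± 0.084. Its call was lost with upper quartile scaling (0.184), with total counts (0.163), and without untreated replicate 3 or IFN-γ replicate 2 or 3 (adjusted p = 0.0708, 0.0521 and 0.0680).

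Of 12 regulators of Hmox1 and Slc40a1, 8 rose and 3 fell, with a median of 0.410. Nfe2l2, the gene of NRF2, which activates both target genes, rose from 188 ± 4.70 to 251 ± 2.19 CPM (log2 fold change 0.41 ± 0.051, edgeR adjusted p = 0.000384). Bach1, the haem-sensing repressor of Hmox1, rose by 0.43 ± 0.11 and lost its call with upper quartile scaling (0.283), total counts (0.256) and without IFN-γ replicate 1 (adjusted p = 0.0959). Maff, a small MAF partner of both factors, rose by 1.18 ± 0.098, and Spic, the haem-induced factor of red pulp macrophages, by 0.95 ± 0.14 from 3.57 ± 0.626 CPM. Bach2, a relative of Bach1, fell by 1.32 ± 0.29 on the log2 scale to 0.697 ± 0.237 CPM. Keap1, Mafk, Nr1h3 and Hif1a were also called higher, and Mafg and Epas1 lower.

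Other NRF2 target genes were read beside Hmox1, which is one of their kind. Of 12, 4 fell and none rose, with a median of -0.165. Osgin1, an oxidative stress-induced growth inhibitor, fell from 29.2 ± 1.93 to 13.1 ± 0.617 CPM, or -1.15 ± 0.078 as log2 fold change (edgeR adjusted p = 1.08e-05). Gclc, which makes the precursor of glutathione, fell by 0.98 ± 0.067 and Srxn1, sulfiredoxin, by 0.36 ± 0.050 on the log2 scale. Nqo1, Gclm, Txnrd1 and Slc7a11 were among the 8 that were not called.

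**Figure D5:**
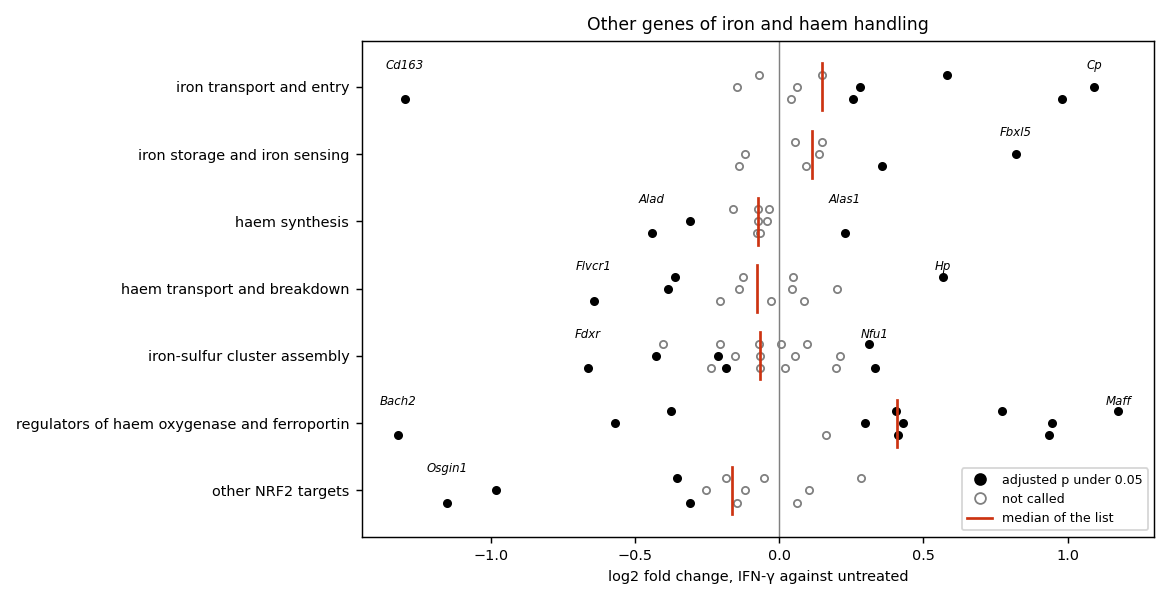
Log2 fold change with IFN-γ of each tested gene of the 7 lists (points, filled if the adjusted p was under 0.05), with the median of each list as a red line and the outermost called genes named. Called genes lie on both sides of 0 in most lists, and the list of regulators has its median at 0.410.

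Promoters gave no grouping of the genes searched. In 250 bases before each of 14 RefSeq start sites (GRCm38.p6) of 7 of the 10 genes, no window held the interferon-response core (GAAA, any 2 bases, GAAA) or the NRF2-type core TGACNNNGC on either strand. The shares over all 32851 windows of that length were 2.98% and 10.2%. Slc11a2, Slc40a1 and Hmox1 were not among the genes searched, and the absence of these letters in a window says nothing about binding of the factors.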

How the data were processed

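Polyadenylated RNA of 6 libraries was sequenced after a stranded mRNA kit, per the labels' protocols. HISAT2 and mm10 are named, per the submitters' processing notes. Versions, the counting tool and its handling of strand and of reads with several map positions are not given here. Each table deposited by the authors gives a raw count, TPM and FPKM per gene. The deposited TPM and FPKM were recomputed from counts and exon length to within 7.3e-11; TPM was used only to compare levels between genes, and FPKM was not used further. Coordinates in the tables differ from mm10 (601 of 35270 shared symbols, 1.7%, had the start and end of GRCm38.p6), so gene positions are printed as deposited, while sequences and their positions are GRCm38.

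The main test on the counts was the two-sided quasi-likelihood test of edgeR 4.0.16 (R 4.3.3, with limma 3.58.1) after TMM scaling. Genes passed filterByExpr at a minimum count of 10 and total of 15, which left 12968, and p-values were adjusted over these by Benjamini-Hochberg and called under 0.05. Each SE is the size of the log2 value over the root of its F statistic. No 2 replicates of a group were alike within sampling noise, as chi-square over its degrees of freedom was 2.06 to 82. Data were also simulated for 12791 genes, with 49 or 50 of them changed at each fold. The test then found 8.2% of changes of 1.25-fold, 68% at 1.5-fold and 81.6% at 2-fold, with 6 false among 133 calls. In the real data 36.4% of genes were called, and adjustment over all genes is stricter when fewer genes change. The simulated shares therefore do not carry over to the real data, and how often small changes were missed there was not tested.

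The 10 genes and the lists were chosen with earlier results of these data known. Named genes were all 10; from each list up to 3 called genes with the largest changes and a mean of at least 1 CPM; and Irf1, Acod1, Aco1, Nfe2l2 and Bach1. Some genes that this rule names are not reported here. Other list genes were named after their values were seen. The list entry Tf was read as Trf, the symbol in the tables. Alternative settings were 3 scalings (total count, upper quartile, RLE), 2 filters (none, or 5 CPM in 3 libraries), DESeq2 1.42.0, limma-voom, a robust fit, a replicate block, a stricter threshold of 0.01, trends on exon length taken out per library by lowess (span 0.5), and leaving out each library. Sharing of 50-base stretches was counted in GENCODE M21 transcripts. Python 3.11.15 with scipy 1.17.1, numpy 2.4.6, matplotlib 3.10.9 and pandas 2.3.3 gave the ratios and figures.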

Additional observations from a re-analysis of the deposited data

How the results depend on the processing

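Of the 10 genes, Slc11a2 (0.648 to 0.849), Slc40a1, Steap3 (-0.982 to -0.782) and Hmox1 (-1.046 to -0.811) kept direction and call in all alternatives run. Upper quartile scaling and total counts put the median log2 fold change of all genes at -0.161 and -0.184, against -0.014, and 30.6% and 26.9% of calls on the higher side, against 53.8%. With these scalings 1 and 1 of the 10 genes were higher and 4 and 6 lower, 12 and 12 list genes were higher and 31 and 37 lower, and over all genes 1803 and 1666 were higher and 4097 and 4520 lower (2539 and 2176 with TMM). At a threshold of 0.01, 1242 of all genes and 9 list genes were lower. With the exon length trend removed, 27 list genes were higher and 19 lower.

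Signs changed for genes that were not called with TMM: Hmox2 was at -0.133 with upper quartile scaling, -0.155 with total counts, -0.014 with the 5 CPM filter, -0.014 without untreated replicate 1 and -0.004 without IFN-γ replicate 2; Ireb2 was at -0.048 and -0.073 with upper quartile scaling and total counts; Ftl1 was at 0.007 with the length trend removed, 0.038 without untreated replicate 2 and 0.001 without IFN-γ replicate 1; and Fth1 was at 0.065 without untreated replicate 2. With each library left out in turn, Fth1 ran from -0.129 to 0.065, Ftl1 from -0.093 to 0.038 and Hmox2 from -0.014 to 0.029. Leaving out each library gave 2 higher and 3 lower of the 10 genes each time, 15 to 26 list genes higher and 11 to 22 lower, and 1991 to 3174 of all genes higher and 1451 to 2793 lower. The log2 differences of the ratios then ran from -0.954 to -0.842 (Hmox1 to Hmox2), -0.598 to -0.548 (Slc11a1 to Slc11a2), -0.040 to 0.026 (Fth1 to Ftl1), 0.180 to 0.232 (Tfrc to Slc40a1) and 0.184 to 0.297 (Ireb2 to Aco1). Apart from what the scaling itself shows, the cause was not tested.

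The labels do not say whether replicate numbers pair the samples, and correlations between libraries do not settle it. Deviations of same-numbered libraries correlated at 0.306, 0.144 and -0.0703, and not every library correlated best with its own number. With the replicate block, 2 and 3 of the 10 genes, 21 and 18 list genes, and 2723 and 2327 of all genes were higher and lower.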
